A study of Bos taurus with 10 samples.

Results

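COX1, COX2, COX3 and CYTB are protein-coding genes of the mitochondrial genome, and their transcripts were followed here in the liver of late-pregnant dairy cows. The members were 4 rows of a table of 27607 Ensembl gene IDs, chosen by ID: ENSBTAG00000043561 for COX1, ENSBTAG00000043556 for COX2, ENSBTAG00000043560 for COX3 and ENSBTAG00000043550 for CYTB. The table gives no symbols, and 0 of its IDs are in the RefSeq gene table used (assembly ARS-UCD2.0). The symbols therefore came with the choice of these IDs and could not be checked against the deposited values, and neither could liver markers. All 4 genes had counts in every library and passed the filter on low counts.

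Liver samples of Holstein cows, all collected 2 weeks ahead of the expected calving, gave 10 libraries of 3' mRNA sequencing, 5 of them from over-conditioned cows and 5 from normal-conditioned cows. Over-conditioned cows carry excess body fat, and no other treatment, genotype or age is named for either group. The labels do not state that each library is a separate cow, so the p-values measure the spread between these samples, which may be technical. Total counts per library ran from 3892292 in over-conditioned replicate 2 to 6737548 in over-conditioned replicate 5. Each value below is a share, the counts of a gene as a percentage of all counts in its library, and ± marks the SD over 5 libraries.

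Complex IV, cytochrome c oxidase, is the last enzyme of the respiratory chain and passes electrons from cytochrome c to oxygen. COX1 and COX2 are its catalytic subunits, which hold its haem and copper centres, and COX3 is the remaining mitochondrially encoded subunit of its core. CYTB encodes cytochrome b, the mitochondrially encoded subunit of complex III, which passes electrons from ubiquinol to cytochrome c. Mitochondrial DNA is transcribed as long precursors that span many genes and are cut, mostly at the tRNA genes, into single messages that then receive short poly(A) tails. After that, the level of each message also depends on its stability. Hepatocytes are rich in mitochondria.

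In the RefSeq gene table the mitochondrial genome holds 37 genes, of which 13 encode proteins. COX1 and COX2 are neighbours there, separated by 2 tRNA genes. Between COX2 and COX3 lie 3 genes, a tRNA gene, ATP8 and ATP6. CYTB is farther away, with 11 genes between it and COX3, 5 of them protein-coding (ND3, ND4L, ND4, ND5 and ND6).

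The 4 transcripts together made up between 5.12% and 7.21% of all counts. The over-conditioned libraries held 6.17%, 7.21%, 5.65%, 5.39% and 6.43% for replicates 1 to 5. The normal-conditioned libraries held 5.60%, 5.29%, 6.30%, 5.44% and 5.12% in the same order. The highest summed share was in over-conditioned replicate 2 and the lowest in normal-conditioned replicate 5, and the groups overlapped. The means were 6.17% ± 0.713 with over-conditioning and 5.55% ± 0.458 in the normal-conditioned group. Without over-conditioned replicate 2 the difference of 0.619 percentage points was 0.359, and without over-conditioned replicate 4 it was 0.814. These were the lowest and the highest values when a single library was left out. No test between the conditions was made of this sum, which describes a chosen list. In bulk tissue, fewer cells of a type and less RNA per cell cannot be told apart. COX3 carried 69.98% of the variance of the sum across libraries and CYTB 21.2%, against 5.15% for COX1 and 3.71% for COX2. Each part is the covariance of the member with the sum, so it also holds covariances between members.

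**Figure D1:**
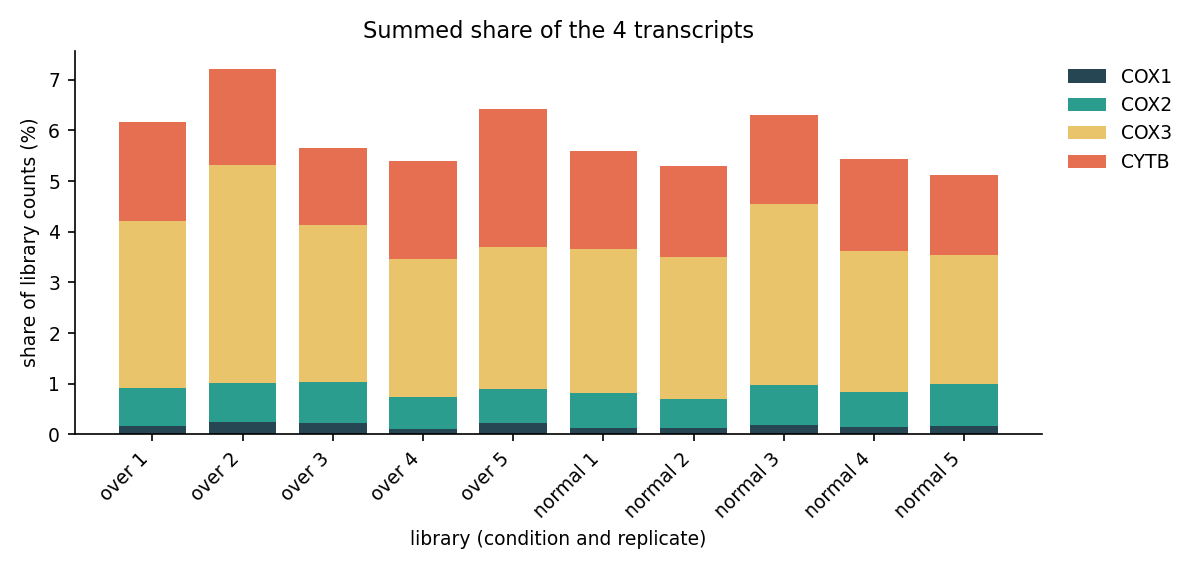
Summed share of the 4 transcripts, as a percentage of all counts, in each library (x axis), with each bar divided by gene. The bar of over-conditioned replicate 2 is the tallest at 7.21% and that of normal-conditioned replicate 5 the shortest at 5.12%.

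The order of the transcripts was the same in all 10 libraries, with COX3 highest, then CYTB, COX2 and COX1. Because 3' sequencing gives at most about 1 fragment per captured transcript molecule whatever its length, these shares were not divided by length. COX3 was the 2nd or 3rd most abundant ID of the table in every library. CYTB ranked between 4 and 9, COX2 between 15 and 19 and COX1 between 51 and 128. Across libraries, every CYTB share stood above every COX2 share and every COX2 share above every COX1 share. The COX3 and CYTB shares overlapped between libraries, though COX3 was the higher within each. Whether the poly(A) tails of the 4 messages prime the library reaction equally well was not tested.

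COX1 was the least abundant of the 4 and the one that varied most. Its share was 0.164%, 0.241%, 0.216%, 0.108% and 0.227% in over-conditioned replicates 1 to 5. It was 0.136%, 0.124%, 0.188%, 0.151% and 0.170% in normal-conditioned replicates 1 to 5. The over-conditioned group held the 3 highest libraries and also the lowest one, replicate 4, so that it enclosed the whole normal-conditioned range. The means were 0.191% ± 0.0550 with over-conditioning and 0.154% ± 0.0256 in the normal-conditioned group. The highest library stood 2.24-fold above the lowest. The difference between the means, 0.0374 percentage points, was smaller than the SD of the over-conditioned and larger than that of the normal-conditioned group, and did not pass (two-sided exact permutation test, n = 5 against 5, p = 0.206; adjusted over all 9162 genes tested, p = 0.831). Without over-conditioned replicate 4 it was 0.0583 percentage points (exact permutation p = 0.0397 before adjustment, edgeR adjusted p = 0.511).

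COX2 was the steadiest. Its share was 0.759%, 0.766%, 0.819%, 0.635% and 0.667% in over-conditioned replicates 1 to 5. It was 0.677%, 0.566%, 0.793%, 0.677% and 0.815% in normal-conditioned replicates 1 to 5. High and low libraries occurred in both groups, with the lowest in normal-conditioned replicate 2 and the highest in over-conditioned replicate 3. The highest stood 1.45-fold above the lowest. The means of 0.729% ± 0.0758 with over-conditioning and 0.706% ± 0.101 in the normal-conditioned group differed by 0.0234 percentage points, well within the spread (exact permutation test, two-sided, n = 5 against 5, p = 0.683; adjusted over all genes tested, p = 0.952).

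COX3 was the most abundant of the 4 in each library. Its share was 3.298%, 4.31%, 3.10%, 2.72% and 2.81% in over-conditioned replicates 1 to 5. It was 2.85%, 2.81%, 3.58%, 2.78% and 2.56% in normal-conditioned replicates 1 to 5. Most libraries lay close together, and over-conditioned replicate 2, the library with the lowest total count, stood above all others. The means were 3.25% ± 0.636 with over-conditioning and 2.92% ± 0.385 in the normal-conditioned group, a difference of 0.332 percentage points (exact permutation test, two-sided, n = 5 against 5, p = 0.405; adjusted over all genes tested, p = 0.888). Without over-conditioned replicate 2 the difference was 0.0669 percentage points. Without normal-conditioned replicate 3 it was 0.497 (exact permutation p = 0.151 before adjustment), so single libraries moved it both ways.

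CYTB, the complex III member, was set apart by a different library. Its share was 1.95%, 1.89%, 1.51%, 1.92% and 2.72% in over-conditioned replicates 1 to 5. It was 1.94%, 1.79%, 1.75%, 1.83% and 1.57% in normal-conditioned replicates 1 to 5. Over-conditioned replicate 5, the library with the highest total count, was the highest and over-conditioned replicate 3 the lowest, and the normal-conditioned libraries lay between them. The means were 2.00% ± 0.443 with over-conditioning and 1.77% ± 0.135 in the normal-conditioned group, a difference of 0.226 percentage points (exact permutation test, two-sided, n = 5 against 5, p = 0.333; adjusted over all genes tested, p = 0.870). Without over-conditioned replicate 5 the difference was 0.0450 percentage points, and without over-conditioned replicate 3 it was 0.349, with an unadjusted exact permutation p of 0.0317.

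**Figure D2:**
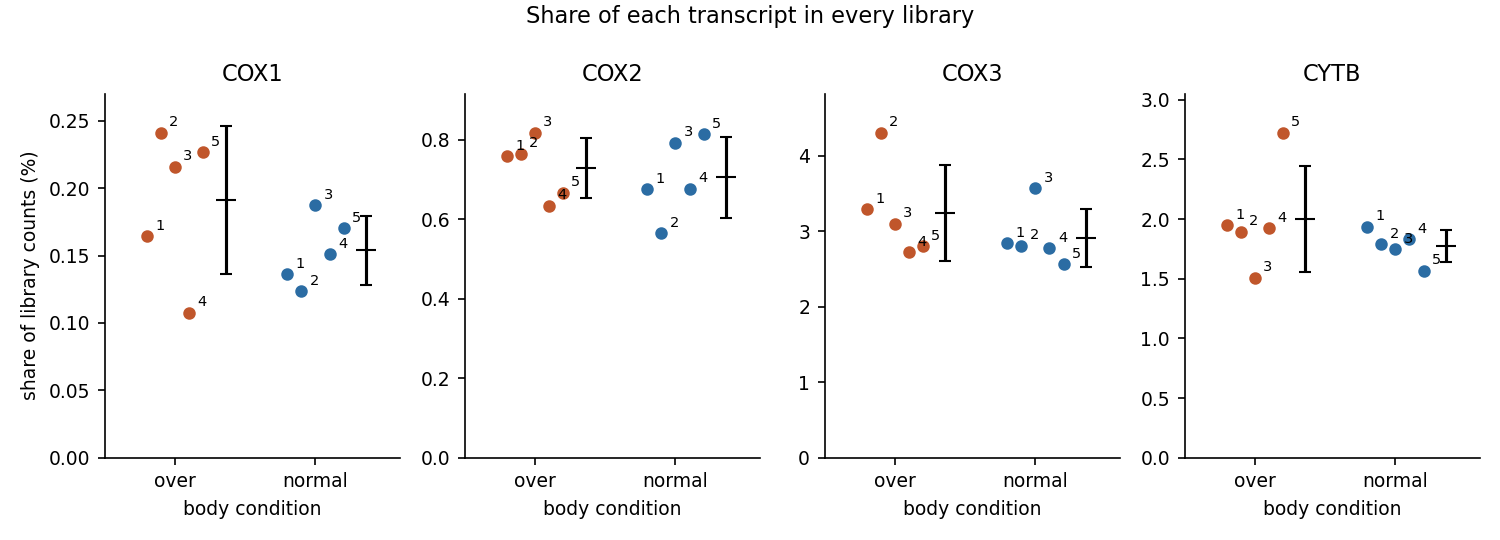
Share of all counts (y axis, percent, a separate scale starting at 0 for each gene) in the 5 over-conditioned and 5 normal-conditioned libraries, with replicate numbers beside the points and the mean ± SD in black. The groups overlap for all 4 genes, COX3 is highest in over-conditioned replicate 2 at 4.31% and CYTB in over-conditioned replicate 5 at 2.72%.

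With reads taken as independent, counting error was small beside these differences between libraries. The fewest counts behind any value were the 5602 counts of COX1 in over-conditioned replicate 4, whose share of 0.108% had a 95% Wilson interval of 0.105% to 0.111%. The SD over the 10 libraries was 25.4 times the counting SD for COX1 and 23.5 times for COX2. For COX3 it was 70.8 times and for CYTB 57.0 times. Such intervals and the counting SD hold for independent reads only. Reads without molecular identifiers are not independent molecules, so the counting error may be larger.

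Among all abundant genes the members lay on both sides of the middle in their variability. The SD of the log2 share over the 10 libraries was 0.39 for COX1, 0.18 for COX2, 0.23 for COX3 and 0.23 for CYTB. The median over the 1016 genes at a mean of 100 CPM or more (CPM is the count scaled to a common library size by edgeR), with a count in every library, was 0.25. COX1 exceeded 81.2% of those genes and COX2 exceeded 15.4%, with COX3 at 36.4% and CYTB at 38.2%.

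Spread within a condition was described for the members and for the same abundant genes, with no test. This description was chosen after the values were seen. In over-conditioned libraries the SD of the log2 share was 0.48 for COX1 and 0.30 for CYTB, against 0.24 and 0.11 in normal-conditioned libraries. COX3 stood at 0.26 and 0.18 in that order. COX2 went the other way, with 0.15 in the over-conditioned and 0.21 in the normal-conditioned group. A larger SD in over-conditioned libraries was therefore seen in 3 of the 4 members, and it was seen in 67.7% of the abundant genes. The median ratio of the SDs over those genes was 1.303, beside 2.00 for COX1, 2.72 for CYTB, 1.47 for COX3 and 0.719 for COX2.

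Ratios within a library do not depend on its total count. COX2 counts were 4.61 ± 0.282 times those of COX1 in normal-conditioned libraries. In over-conditioned libraries this ratio was 4.08 ± 1.203 and ran from 2.94 in replicate 5 to 5.90 in replicate 4, which were the extremes of all 10 libraries. As log2 values the SD of this ratio was 0.09 in the normal-conditioned and 0.41 in the over-conditioned group. The 2 extreme libraries had COX2 shares close to each other, 0.667% and 0.635%, and differed in COX1. This contrast in spread was picked out after its values were seen and was not tested.

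The balance between complex IV and complex III messages also differed most among over-conditioned libraries, and this was not tested. As log2 values the SD of CYTB over COX3 was 0.45 in the over-conditioned and 0.19 in the normal-conditioned group. The contrast was smaller for CYTB over COX2, at 0.42 and 0.29, and for CYTB over COX1, at 0.54 and 0.32. CYTB counts were 0.639 ± 0.212 times those of COX3 in the over-conditioned group and 0.615 ± 0.0748 times in the other. The ratio was lowest in over-conditioned replicate 2, at 0.439, and highest in over-conditioned replicate 5, at 0.9697, where both messages were almost equally abundant. COX3 counts were 4.45 ± 0.692 times those of COX2 in the over-conditioned group and 4.19 ± 0.672 times in the other, a similar spread in both. As a part of the 4 transcripts, COX3 made up 52.5% ± 5.94 in the over-conditioned group and 52.4% ± 2.67 in the other. CYTB made up 32.5% ± 6.73 and 32.1% ± 2.86 in the same order, so the mean make-up was close in both conditions while single over-conditioned libraries lay farther out.

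**Figure D3:**
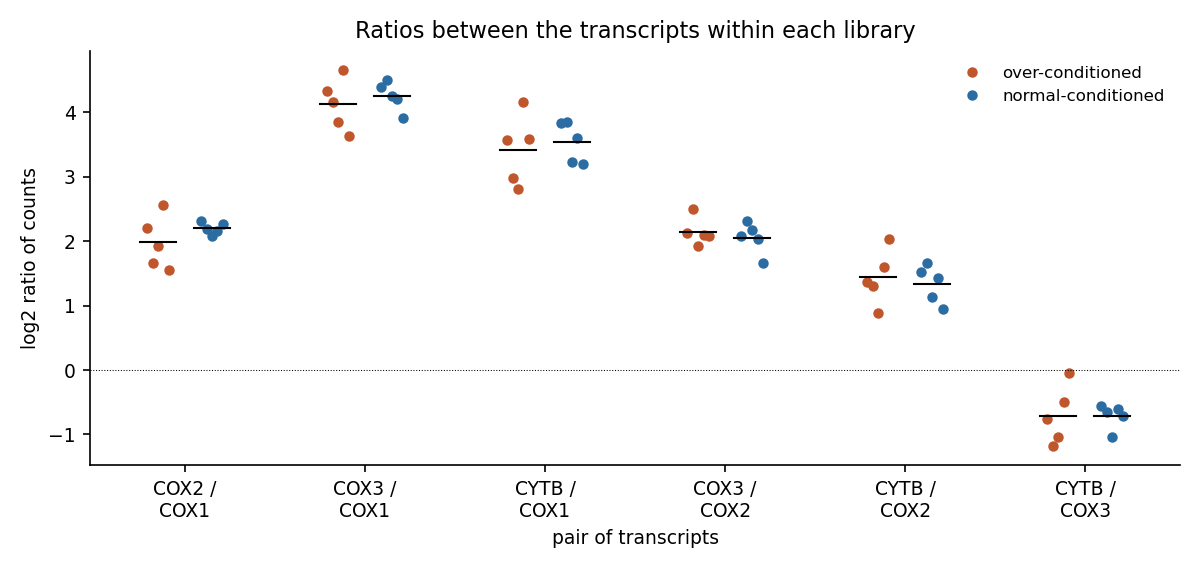
Log2 ratio of counts for each pair of transcripts (x axis) in every library, with over-conditioned in orange, normal-conditioned in blue and the group mean as a black line. The COX2 to COX1 ratio has an SD of 0.41 in the over-conditioned and 0.09 in the normal-conditioned group.

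Covariation was examined for the 6 pairs of members over the 10 libraries, with both conditions together, since 5 libraries in a group are too few for a correlation of their own. All shares of a library have the same total as denominator, and p-values are from permutation tests (two-sided, 100000 permutations), with Benjamini-Hochberg adjustment over the 6 pairs. No pair passed at 0.05, adjusted or not. The 3 complex IV members had positive coefficients with each other, from 0.41 to 0.60, and those of CYTB ran from −0.42 to 0.22.

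COX1 and COX2 had a Pearson r of 0.60 (p = 0.0680, adjusted p = 0.204) and a Spearman rho of 0.61 (p = 0.0666, adjusted p = 0.214). Their shares stood on the same side of their medians in 8 of the 10 libraries. Without over-conditioned replicates 2 and 4, the libraries farthest from the COX1 median, r was 0.53. Over-conditioned replicate 5 departed most from the common trend, with high COX1 and low COX2, and without it r was 0.78 (permutation p = 0.0141, not adjusted).

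COX1 and COX3 had an r of 0.60 (p = 0.0568, adjusted p = 0.204) and a rho of 0.49 (p = 0.152, adjusted p = 0.305). Without over-conditioned replicates 2 and 4 the r was 0.24. Without replicate 2 alone it was 0.34 and without replicate 4 alone 0.58. Leaving out over-conditioned replicate 5 gave 0.77 (permutation p = 0.0137, not adjusted). COX2 and COX3 had an r of 0.41 (p = 0.260, adjusted p = 0.389) and a rho of 0.32 (p = 0.372, adjusted p = 0.558), and r was 0.43 without over-conditioned replicate 3 and normal-conditioned replicate 2. Without normal-conditioned replicate 5 it was 0.63 (permutation p = 0.0609, not adjusted).

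CYTB and COX2 had a negative coefficient, an r of −0.42 (p = 0.223, adjusted p = 0.389) and a rho of −0.60 (p = 0.0713, adjusted p = 0.214). Without over-conditioned replicate 3 and normal-conditioned replicate 2, r was −0.54, and without the latter alone it was −0.63 (permutation p = 0.0378, not adjusted). On TMM library sizes in place of column totals it was −0.16. CYTB and COX1 had an r of 0.22 (p = 0.580, adjusted p = 0.696) and a rho of −0.09 (p = 0.812, adjusted p = 0.947). This r was 0.33 without over-conditioned replicates 2 and 4 and −0.38 without over-conditioned replicate 5, which therefore decided its sign. CYTB and COX3 had an r of −0.06 (p = 0.828, adjusted p = 0.828) and a rho of 0.03 (p = 0.947, adjusted p = 0.947), and r was −0.02 without over-conditioned replicate 2 and normal-conditioned replicate 3.

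Taking deviations from the group means removed the condition from these coefficients. The r was then 0.60 for COX1 and COX2, 0.54 for COX1 and COX3 and 0.38 for COX2 and COX3. It was −0.51 for COX2 and CYTB, −0.21 for COX3 and CYTB and 0.08 for COX1 and CYTB. Each complex IV pair thus kept a positive coefficient within conditions.

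Over all 516636 pairs among the 1017 genes at 100 CPM or more, the median r was 0.03, with quartiles of −0.25 and 0.31. The coefficient of COX1 and COX2 exceeded that of 92.96% of those pairs, that of COX1 and COX3 exceeded 93.2% and that of COX2 and COX3 exceeded 81.8%. For CYTB with COX2 this was 13.1%. Correlations of such sizes were therefore not rare among abundant genes, with 5% of all pairs above 0.65.

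**Figure D4:**
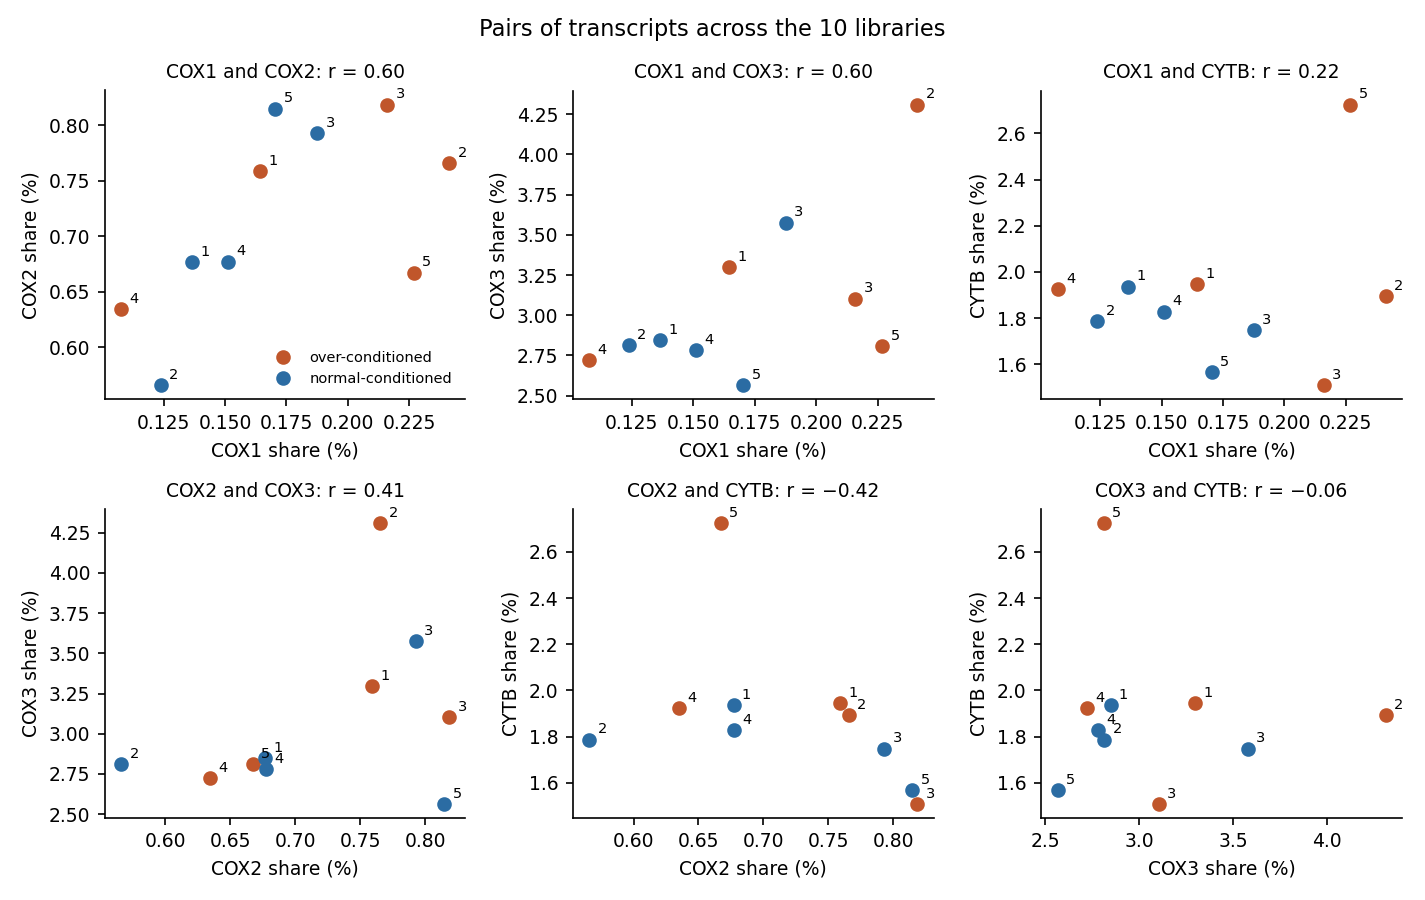
Shares of each pair of transcripts (both axes in percent of all counts) in the 10 libraries, with replicate numbers beside the points and over-conditioned libraries in orange, normal-conditioned in blue. Pearson r is printed above each panel, from 0.60 for COX1 with COX2 and with COX3 to −0.42 for COX2 with CYTB, and over-conditioned replicate 5 stands alone in the CYTB panels.

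The comparison of the 2 conditions was also made with a count model over all genes, after scaling by trimmed mean of M values (TMM). None of the 4 members passed edgeR's quasi-likelihood test, and none had an unadjusted p under 0.05. Of the 9162 genes tested, 0 (0%) passed at an adjusted p under 0.05 in edgeR and 0 in limma-voom, and 692 (7.55%) had an unadjusted p under 0.05 in edgeR. DESeq2, after its own filtering, called 21 of 7630 genes. Likewise 0 of the 4 members had an exact permutation p of the share under 0.05, where 6.22% of all genes did, and 0 had groups that did not overlap, where 1.28% of all genes did.

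For COX1 the mean level was 1906 ± 626 CPM with over-conditioning and 1563 ± 243 CPM without it, which gave a log2 fold of 0.29 (SE 0.22, edgeR adjusted p = 0.784). The approximate 95% interval of the fold ran from 0.879 to 1.69. COX2 was at 7185 ± 968 and 7165 ± 869 CPM, a fold of 1.003 with an interval from 0.807 to 1.25 (edgeR adjusted p = 0.996). COX3 was at 31946 ± 6291 and 29788 ± 4745 CPM, a fold of 1.07 with an interval from 0.836 to 1.38 (edgeR adjusted p = 0.902). CYTB was at 19798 ± 5472 and 18101 ± 1949 CPM, a fold of 1.09 with an interval from 0.841 to 1.42 (edgeR adjusted p = 0.879). These intervals leave room for a moderate change in either direction in each member and do not show that the conditions are alike.

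The median log2 fold of the 4 members was 0.12, beside 0.01 over all genes tested. The fold was above 1 for 4 of the 4 members and for 51.7% of all genes. By the mean share without TMM scaling, 4 of the 4 members and 60.2% of all genes were higher in over-conditioned libraries. The direction rested on single libraries for 3 of the members. The COX3 log2 fold was −0.02 without over-conditioned replicate 2, and −0.16 with the library number as a covariate. That of CYTB was −0.06 without over-conditioned replicate 5. That of COX2 was below 0 without any one of 5 libraries, over-conditioned replicates 2 and 3 and normal-conditioned replicates 1, 2 and 4, and was also below 0 with DESeq2 (−0.0035), with upper quartile scaling (−0.0005) and with no filter (−0.0092). The COX1 log2 fold stayed above 0 in each of the 19 alternatives run. It was 0.45 without over-conditioned replicate 4 (edgeR adjusted p = 0.511) and 0.18 without over-conditioned replicate 5.

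**Figure D5:**
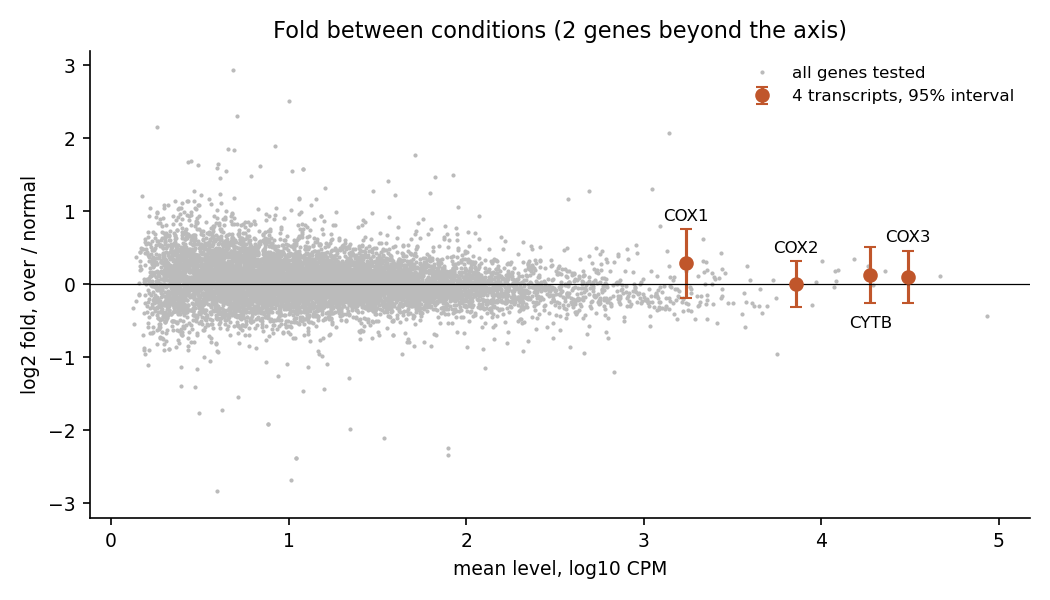
Log2 fold between over-conditioned and normal-conditioned libraries (y axis) against mean level (x axis, log10 CPM) for all 9162 genes tested in grey, with the 4 transcripts and their approximate 95% intervals in orange. All 4 intervals include 0, and 2 genes lie beyond the axis.

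Total count and library number were set against the summed share. Its r with the total count of the library was −0.55 (permutation p = 0.0950, adjusted over 2 relations p = 0.133) and its rho −0.20 (p = 0.584, adjusted p = 0.584). This r was −0.20 without over-conditioned replicate 2, the library with the lowest total and the highest summed share, and 0.06 without over-conditioned replicates 1 and 2. Its r with the number that opens each library's name was −0.51 (permutation p = 0.133, adjusted p = 0.133) and its rho −0.52 (p = 0.134, adjusted p = 0.267), and r was −0.37 without over-conditioned replicate 1 and normal-conditioned replicate 5. Over-conditioned libraries hold 5 of the 6 lowest of these numbers, so the number and the condition can hardly be told apart. Beyond these correlations of the sum, and the folds with the library number as a covariate, the part of either feature was not tested.

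The genes whose log2 CPM followed the log2 summed share most closely were sought among those at 100 CPM or more, the members left out. For the correlation, CPM was scaled by the column total without TMM, so both quantities had the same denominator. The means given are edgeR CPM. The highest r over the 10 libraries was 0.86 for ENSBTAG00000043577 (mean 11915 CPM), followed by 0.80 for ENSBTAG00000052909 (mean 232 CPM). The lowest was −0.84 for ENSBTAG00000048782 (mean 1722 CPM), followed by −0.82 for ENSBTAG00000016277 (mean 150 CPM). These are the ends of a search over all such genes and are given as descriptions, with no symbol paired to the IDs.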

How the data were processed

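The authors deposited raw counts, whole numbers per Ensembl gene ID, without normalization. Liver RNA was made into libraries with the QuantSeq 3' forward kit and sequenced as single reads, per the labels' protocols. Tools named in the submitters' processing notes, without roles, are RSEM 1.3.1, STAR 2.6.0c and cutadapt 1.18, with the builds bosTau9 and ARS-UCD1.2. The counting rule, its strand setting and the treatment of reads that match several places, such as nuclear copies of mitochondrial sequence, are not given in the sources used here.

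Groups and replicate numbers came from the sample titles. Shares are counts over the column total, and log2 CPM in the likeness search used the same total, with 0.5 added to each count. The members and gene lists were chosen with earlier results of these data known. Lists of respiratory chain, mitochondrial RNA and cell type genes were not used, since no symbols could be paired with IDs. The rule for named genes gave the 4 members and the 2 IDs at each end of the likeness search.

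Of 15973 IDs with a count, 9162 passed filterByExpr (minimum count 10, minimum total 15). edgeR 4.0.16 (TMM, quasi-likelihood F-test, Benjamini-Hochberg) in R 4.3.3 was the main test, with DESeq2 1.42.0 and limma 3.58.1 as alternatives. Standard errors came from the fold and F. Exact tests used all 252 regroupings, with a smallest possible p of 0.00794 (SciPy 1.17.1, Python 3.11.15). The scripts were tested on simulated data. No 2 libraries agreed within sampling noise.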

Additional observations from a re-analysis of the deposited data

Results flagged for a closer look

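COX3 in normal-conditioned replicate 3 lay far from its group, at 3.58% of counts, where the other normal-conditioned libraries ran from 2.56% to 2.85%. The gap to the nearest library was 0.721 of the whole range, above the critical value of 0.71 for 5 samples. No other of the 20 groups of 5 values looked at held a library this far out, and chance gives about 1 in 20 such groups.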

How the results depend on the processing

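Folds of the 4 members passed the adjusted threshold under none of the alternatives run, and 65 of 76 kept their direction. With DESeq2, upper quartile scaling and no filter, the COX2 log2 fold was −0.0035, −0.0005 and −0.0092. With the library number as a covariate the log2 fold was 0.49 for COX1, 0.0129 for COX2, −0.16 for COX3 and 0.27 for CYTB, and 261 genes had an unadjusted p under 0.05 in place of 692. Without single libraries the log2 fold ran from 0.18 to 0.45 for COX1, from −0.0566 to 0.0745 for COX2, from −0.019 to 0.19 for COX3 and from −0.0569 to 0.21 for CYTB. Genes called were 21 with DESeq2 and 0 to 1 without single libraries (the 1 without normal-conditioned replicate 1).

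The share difference, in percentage points, ran without single libraries from 0.0249 to 0.0583 for COX1 and from −0.0115 to 0.0507 for COX2. For COX3 it ran from 0.0669 to 0.497 and for CYTB from 0.0450 to 0.349. It passed an unadjusted exact p of 0.05 for COX1 without over-conditioned replicate 4 (p = 0.0397) and for CYTB without over-conditioned replicate 3, and was below 0 for COX2 without normal-conditioned replicate 2.

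COX1 and COX2 had an r of 0.65 on log2 shares and 0.70 with TMM library sizes. COX1 and COX3 had 0.63 with the 4 genes left out of the total and 0.65 with TMM sizes. These 4 values had an unadjusted permutation p under 0.05. For COX1 and CYTB the rank coefficient was −0.0909, and for COX3 and CYTB it was 0.0303, with 0.0917 for r with TMM sizes. With TMM sizes r was 0.39 for COX1 and CYTB, 0.46 for COX2 and COX3 and −0.16 for COX2 and CYTB. Without single libraries r ran from 0.50 to 0.78 for COX1 and COX2, from 0.34 to 0.77 for COX1 and COX3, from 0.34 to 0.63 for COX2 and COX3, from −0.38 to 0.41 for COX1 and CYTB, from −0.63 to −0.30 for COX2 and CYTB and from −0.20 to 0.22 for COX3 and CYTB. The causes of these changes were not tested.

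With a replicate block, 0 genes were called and the COX1 log2 fold was 0.22. It changed no call. Same-numbered libraries had correlations of −0.22 to −0.0002 in their deviations from the group means, so no sign of pairing by number was seen. A pairing that leaves no such correlation would not be found this way. Leave-one-out of the summed share and the description of spread within each condition were added after the data were seen. The counting error of the members' shares, with reads taken as independent, was small beside their spread between libraries.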
